A study of Homo sapiens with 12 samples.

Results

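Tumor cells display and release ligands that dampen the cells of the immune system that would attack them. Messenger RNA of 6 such ligands was measured in T24 cells, a human bladder cancer line, in which the U11 small nuclear RNA had been targeted for knockout or overexpression. CD274 (PD-L1) and PDCD1LG2 (PD-L2) bind the receptor PD-1 on T cells, CD276 (B7-H3) is a B7 family protein, CD47 signals through SIRPA on macrophages against engulfment, PVR (CD155) binds TIGIT, CD96 and CD226 on T and natural killer cells, and LGALS9 (galectin-9) is a secreted galectin that binds HAVCR2 (TIM-3). The 6 genes were taken by name from tables of 60504 genes, and each name matched 1 gene. Transcription of CD274 and PDCD1LG2 is known to rise in response to interferon gamma, and most of these genes are spliced into more than 1 transcript, some of which in CD274 and PVR encode forms that are not held in the membrane.

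The series holds 12 RNA-seq libraries of T24 cells. In the knockout comparison, 2 libraries labelled knockout U11 were set against 2 untreated controls, and in the overexpression comparison 6 libraries labelled overexpression U11 were set against 2 other untreated controls. Each overexpression library carries a line label (79, 86 or 87, each on 2 libraries), whose meaning is not given. According to the study's methods, knockout cells were made with CRISPR/Cas9 and a pair of guides and grown from a selected clone, and overexpression cells were stably transfected with a U11 plasmid and also selected as clones, so that a group can stand for a clone as well as for U11. The library identifiers show that the first library of each line label and the first control share an identifier prefix, as do the second libraries and the second control, and these are called the first and second library series here. The knockout comparison has a prefix of its own, so the comparisons were not sequenced under the same prefix. Nothing in the labels says that the 2 libraries of a group came from separate cultures, and the p-values therefore measure only the spread between these libraries.

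The libraries held 9.07 to 15.3 gigabases of aligned sequence. Expression is given in TPM (Stringtie's transcript abundance), which is scaled for transcript length and for the library, so that genes can be set side by side. RNU11, the targeted gene, went against the knockout label, with 31.6 and 37.4 TPM under that label against 21.4 and 23.8 TPM in the controls. U11 is a small RNA without a polyA tail, and how fully libraries labelled polyA RNA capture it was not tested. In the overexpression comparison it was at 61.9 and 53.6 TPM in line 87 and at 3.98 and 3.72 TPM in line 86. In line 79 it was at 0.183 and 0.412 TPM, within the range of 0.033 to 0.623 TPM of the controls. Keratins KRT7, KRT8, KRT18 and KRT19 summed to at least 1817 TPM in every library. Of 7 urothelial markers, 3 reached 1 TPM in the knockout comparison and in each library series of the overexpression comparison. Leukocyte markers summed to 1.66 to 6.79 TPM in the knockout comparison and the first library series and to 7.31 to 11.1 TPM in the second series. Most of the sum outside the second series was CD68. It was at 1.06 to 3.41 TPM in the knockout comparison, 3.22 to 6.27 TPM in the first series and 2.72 to 6.31 TPM in the second series. CD3D (0.951 to 1.68 TPM) and LYZ (1.55 to 1.68 TPM) were found in all 4 libraries of that series, the control included, and were at most 0.051 TPM elsewhere. Of 3 endothelial markers only CDH5 reached 1 TPM, with 34.1 and 32.2 TPM in line 79, 3.08 to 5.28 TPM in the other overexpression comparison libraries, 4.85 and 4.75 TPM in the knockout comparison controls, and 0.032 and 0.029 TPM under the knockout label.

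Among the 5 genes whose promoters were searched, that of CD274 stood out in sequence. Promoter sequences from RefSeq were used for 5 of the 6 genes, and that of PDCD1LG2 was not analysed here. An interferon response element core (GAAANNGAAA, either strand) was present in the 250 bases before the start of 3.02% of 35116 promoters, and a gamma-activated site (GAS, TTCNNNGAA) in 6.57%. Both were found in the CD274 promoter and neither in those of CD276, CD47, PVR and LGALS9. The NF-kappa B motif GGGNNTTTCC, present in 1.73% of promoters, was in none of the 5. The stretch of CD274 at chr9:5450292-5450502 (GRCh38, plus strand) holds the matches to the interferon response element core and the gamma-activated site. It ends at the base before the deposited gene start. Whether interferon gamma acts through these matches was not tested. Capitals mark a pair of overlapping interferon response element cores, read on the minus strand, and the gamma-activated site.
CD274 promoter: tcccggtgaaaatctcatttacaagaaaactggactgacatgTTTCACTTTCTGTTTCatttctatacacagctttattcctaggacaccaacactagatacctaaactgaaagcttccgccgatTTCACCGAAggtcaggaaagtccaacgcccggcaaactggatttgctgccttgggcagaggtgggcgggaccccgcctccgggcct
The matches are letters in a window and were not tested for binding in these cells.

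In the deposited tables CD274 (ENSG00000120217) lay on chromosome 9 at 5450503 to 5470566 and PDCD1LG2 (ENSG00000197646) at 5510570 to 5571254 on the same chromosome and strand. CD276 (ENSG00000103855) was on chromosome 15, CD47 (ENSG00000196776) on chromosome 3, PVR (ENSG00000073008) on chromosome 19 and LGALS9 (ENSG00000168961) on chromosome 17. U11 recognises the start of the rare introns that the minor spliceosome removes. Among 88 introns of the 6 genes in GENCODE release 44, 0 had the canonical start of such introns, against 809 of 402166 (0.201%) over all genes. PDCD1LG2 has 1 annotated transcript, CD274 has 5, CD47 has 6, PVR has 12, LGALS9 has 16 and CD276 has 19.

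T24 cells expressed 5 of the 6 ligands in every library. In the knockout comparison PVR averaged 30.3 ± 8.30 TPM (SD, n = 4), CD47 29.4 ± 2.15, CD276 21.0 ± 6.15, PDCD1LG2 11.6 ± 4.72 and CD274 8.92 ± 5.19 TPM. Over the overexpression comparison PVR averaged 61.4 ± 13.9 TPM (SD, n = 8), CD47 49.5 ± 19.8, CD276 46.6 ± 19.1, CD274 19.6 ± 9.63 and PDCD1LG2 10.98 ± 2.04 TPM. The ranges of 1 SD around the mean overlapped between all neighbours in these orders except CD47 and CD276 in the knockout comparison. CD274 and PDCD1LG2 changed places between the comparisons. The untreated controls alone did so on average, with CD274 at 5.555 and PDCD1LG2 at 7.57 TPM in the knockout comparison (n = 2). In the overexpression comparison the controls averaged 19.3 and 11.9 TPM (n = 2). The comparisons differ in identifier prefix, and the part of the libraries in these levels was not tested. LGALS9 was at 0.088 ± 0.103 TPM (SD, n = 12) with a maximum of 0.331 TPM, which lies below the minimum for testing of 1 TPM in 2 libraries, and it was not tested. Its near-identical copies LGALS9B and LGALS9C reached at most 0.086 and 0.092 TPM, and reads shared between the 3 genes cannot be told apart.

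**Figure D1:**
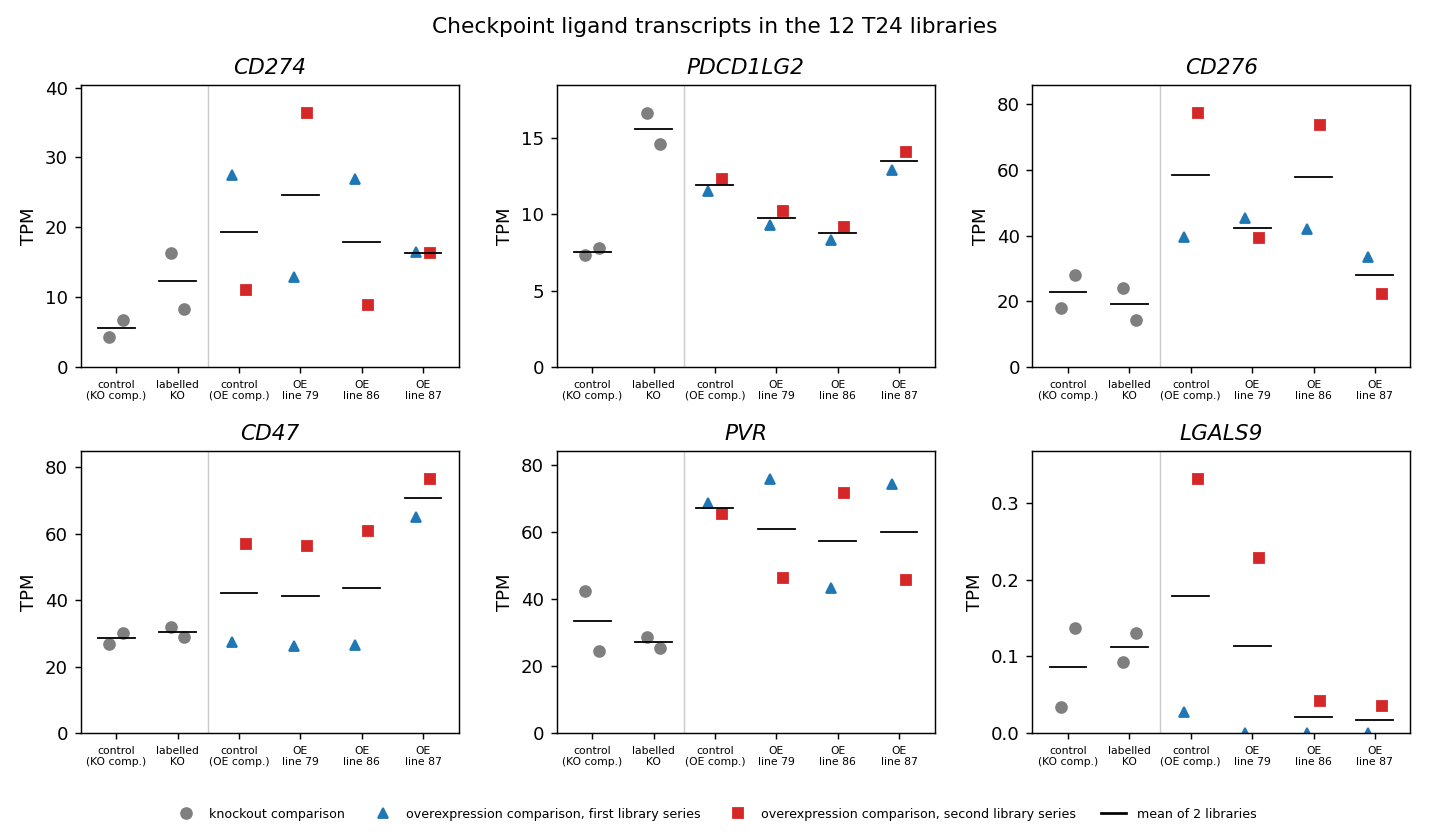
TPM (y axis, linear from 0) of the 6 ligands in the 12 libraries, grouped by condition and line label (x axis), with a bar at the mean of 2 libraries and the marker showing the comparison and library series. PDCD1LG2 libraries of a group lie close together, whereas CD274, CD276, CD47 and PVR separate by up to 3.01-fold within a group, and LGALS9 stays at or below 0.331 TPM.

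PDCD1LG2 was up-regulated in the libraries labelled knockout. Its level was 7.33 and 7.82 TPM in the controls against 16.6 and 14.6 TPM under the knockout label, and the groups did not overlap. The log2 fold change was 0.95 (SE 0.12, limma on log2(TPM + 1), Benjamini-Hochberg adjusted P = 0.0243, higher in 2 of 2 libraries). This fold change is on the log2(TPM + 1) scale, which understates changes at low levels. PDCD1LG2 was differentially expressed, that is at an unadjusted P of 0.05 and a 1.5-fold change, in the fit as reported and in all 10 alternative settings run, with log2 fold changes of 0.82 to 1.04. Its adjusted P ranged from 0.0136 to 0.174 over them and was above 0.05 in 4, among them 0.108 without the filter on low values, 0.174 without the first library labelled knockout and 0.137 without the second.

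CD274 was also higher in the libraries labelled knockout, with less certainty. Its controls had 4.31 and 6.81 TPM, against 16.3 and 8.25 TPM under the knockout label, without overlap. The libraries labelled knockout differed from each other 1.98-fold, a gap that 1.46% of 9139 genes expressed at 5 TPM or more reached in that group. The log2 fold change was 0.98 (SE 0.36, limma adjusted P = 0.154). It passed the unadjusted threshold and not the adjusted one. CDH5 moved the other way between the same groups, falling from 4.85 and 4.75 TPM to 0.032 and 0.029 TPM. Its part in the difference of CD274 and PDCD1LG2 was not tested. CD274 lost its call in 4 of 10 alternatives. Among these were the fits without the filter on low values (limma adjusted P = 0.367), without the first control (log2 fold change 0.70) and without the first library labelled knockout (0.52).

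CD276, CD47 and PVR did not pass the test between these groups. CD276 had 17.9 and 28.0 TPM in the controls against 24.004 and 14.3 TPM under the knockout label, a log2 fold change of -0.26 (limma adjusted P = 0.628). CD47 was at 26.9 and 30.1 TPM against 32.0 and 28.8 TPM, a log2 fold change of 0.09 (adjusted P = 0.645), so its 4 libraries lay within 1.19-fold. PVR had 42.4 and 24.5 TPM in the controls against 28.7 and 25.5 TPM under the knockout label (log2 fold change -0.25, adjusted P = 0.58). All 3 overlapped between the groups, and PVR was set apart mainly by the first control. LGALS9 had 0.034 and 0.137 TPM in the controls against 0.093 and 0.131 TPM under the knockout label.

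Against the background of all genes, 2 of the 5 tested ligands were up-regulated where 8.61% of 14356 genes were, and 0 were down-regulated where 3.15% were. With the adjusted P below 0.05 as well, PDCD1LG2 alone of the 5 was called up, against 4.78% of genes. Groups that do not overlap were common, at 60.2% of genes, and were seen in 2 of the 5. The median log2 fold change of the 5 ligands was 0.09 and that of all genes tested was 0.11. Scaling the libraries to their median ratio moved the latter to -0.02 and left CD274 at 0.84 and PDCD1LG2 at 0.82, both still called. Over all genes it moved the calls from 1236 up and 452 down to 773 up and 775 down.

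In the overexpression comparison none of the 5 ligands was differentially expressed when the 6 overexpression libraries were set against the 2 controls. Here 0.767% of 15768 genes were up-regulated and 1.16% down-regulated, and the groups did not overlap in 9.87% of genes and in 0 of the 5 ligands. The limma log2 fold changes were 0.02 (SE 0.49, adjusted P = 0.997) for CD274, -0.17 (SE 0.19, adjusted P = 0.927) for PDCD1LG2, -0.45 (SE 0.39, adjusted P = 0.923) for CD276, 0.27 (SE 0.46, adjusted P = 0.957) for CD47 and -0.21 (SE 0.25, adjusted P = 0.931) for PVR. With standard errors this large, a 1.5-fold change of CD274 or CD47 was not detectable. The median over the 5 was -0.17 and that of all genes -0.02.

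PDCD1LG2 followed the line label. It was at 12.9 and 14.1 TPM in line 87, 9.29 and 10.2 TPM in line 79, 8.34 and 9.17 TPM in line 86, and 11.5 and 12.3 TPM in the controls. The 2 libraries of each group differed by 1.07-fold to 1.10-fold, and lines 79 and 86 lay below both controls while line 87 lay above them. The share of genes that separate from the controls in this way by line was not counted. The 3 lines differed from each other (limma F test, adjusted P = 0.0218, largest difference between lines 0.57 on the log2 scale), as did 16.0% of genes. Line 87 exceeded line 86 by 0.57 (adjusted P = 0.0235) and line 79 by 0.43 (adjusted P = 0.0415), and lines 79 and 86 were 0.14 apart (adjusted P = 0.434). The difference passed an adjusted P of 0.05 in 8 of 13 alternatives, with adjusted P from 0.0119 to 0.11. It lost the call without the first library of line 79 (0.0561), the first (0.0701) or the second (0.0507) of line 86, and the first (0.0657) or the second (0.11) of line 87. Against the controls, the log2 fold change was -0.27 (limma adjusted P = 0.163) in line 79, -0.41 (adjusted P = 0.129) in line 86 and 0.16 (adjusted P = 0.455) in line 87, none of which reached 1.5-fold.

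CD276 was lowest in line 87. It was at 33.6 and 22.4 TPM there, 45.4 and 39.2 TPM in line 79, 42.1 and 73.6 TPM in line 86 and 39.5 and 77.3 TPM in the controls. The log2 fold change of line 87 against the controls was -0.99 (limma adjusted P = 0.256). Both line 87 libraries lay below both controls, but the share of genes that separate so in a single line was not counted. In the knockout comparison, also of 2 against 2 libraries, 60.2% of genes did not overlap. CD276 was the only ligand called in line 87, where 5.13% of all genes were. No ligand was called in line 79, where 7.95% of genes were, or in line 86, where 3.6% were. The call, made on the unadjusted P, was lost without the filter on low values (adjusted P = 0.451), with the library series as a block (adjusted P = 0.246) and without the second control (-0.51, adjusted P = 0.571), the second library of line 87 (-0.70, adjusted P = 0.582) or either library of line 79 (adjusted P = 0.32 and 0.319). The 3 lines did not differ in CD276 by the F test (adjusted P = 0.255).

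The levels of CD274 and CD47 followed the library more than the label. CD274 in the first library series was at 27.5 TPM in the control, 12.9 in line 79, 27.0 in line 86 and 16.4 in line 87. In the second series it was at 11.03 TPM in the control, 36.3 in line 79, 8.95 in line 86 and 16.3 in line 87. Line 79 was thus the lowest in the first series and the highest in the second, the control lay above line 86 in both, and line 87 repeated. The overexpression libraries lay 0.59 below the control of their own series on the log2 scale in the first series and 0.63 above it in the second. The 2 libraries differed 2.49-fold in the controls, 2.81-fold in line 79 and 3.01-fold in line 86, and at most 0.495% of 10308 genes differed as much in those groups.

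CD47 had 2 levels. It was at 26.3 to 27.4 TPM in the control, line 79 and line 86 of the first series, and at 56.4 to 60.9 TPM in the same groups of the second. Line 87 was high in both series, at 64.9 and 76.4 TPM. The log2 fold change of line 87 against the controls was 0.82 (SE 0.53, limma adjusted P = 0.492), and with the library series as a block the same difference passed the unadjusted threshold (adjusted P = 0.134). Line 87 exceeded the control of its own series in each of the 2 series. In lines 79 and 86 the log2 fold change was -0.03 and 0.03.

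PVR also changed between libraries of a label. It was at 68.7 and 65.4 TPM in the controls, but at 75.7 and 46.2 TPM in line 79, 43.2 and 71.6 TPM in line 86 and 74.4 and 45.7 TPM in line 87. In each line 1 library was thus near or above the controls and the other near 45 TPM, and it was the first library that was low in line 86 and the second in lines 79 and 87. LGALS9 was at 0 in the 3 overexpression libraries of the first series and at 0.228, 0.042 and 0.035 TPM in lines 79, 86 and 87 of the second, with 0.027 and 0.331 TPM in the controls. The second series is also the one in which CD3D and LYZ were found, and the part of other cells' RNA in LGALS9 was not tested.

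The tables allow a closer look at these swings, since they give the read coverage of each gene beside its FPKM and TPM. Coverage is the mean number of reads over each exonic base, and it was scaled here to 10 gigabases of aligned sequence. Its ratio to FPKM gives a mean transcript length, as a percent of the exonic length of the gene, which moves when reads are assigned to shorter or longer transcripts. Of genes with 1 annotated transcript, 88.8% had a value above 99% in all libraries, against 1.43% of genes with more. PDCD1LG2, with its 1 transcript, was at 100% throughout, and its libraries had the same order in TPM and in coverage within each comparison.

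**Figure D2:**
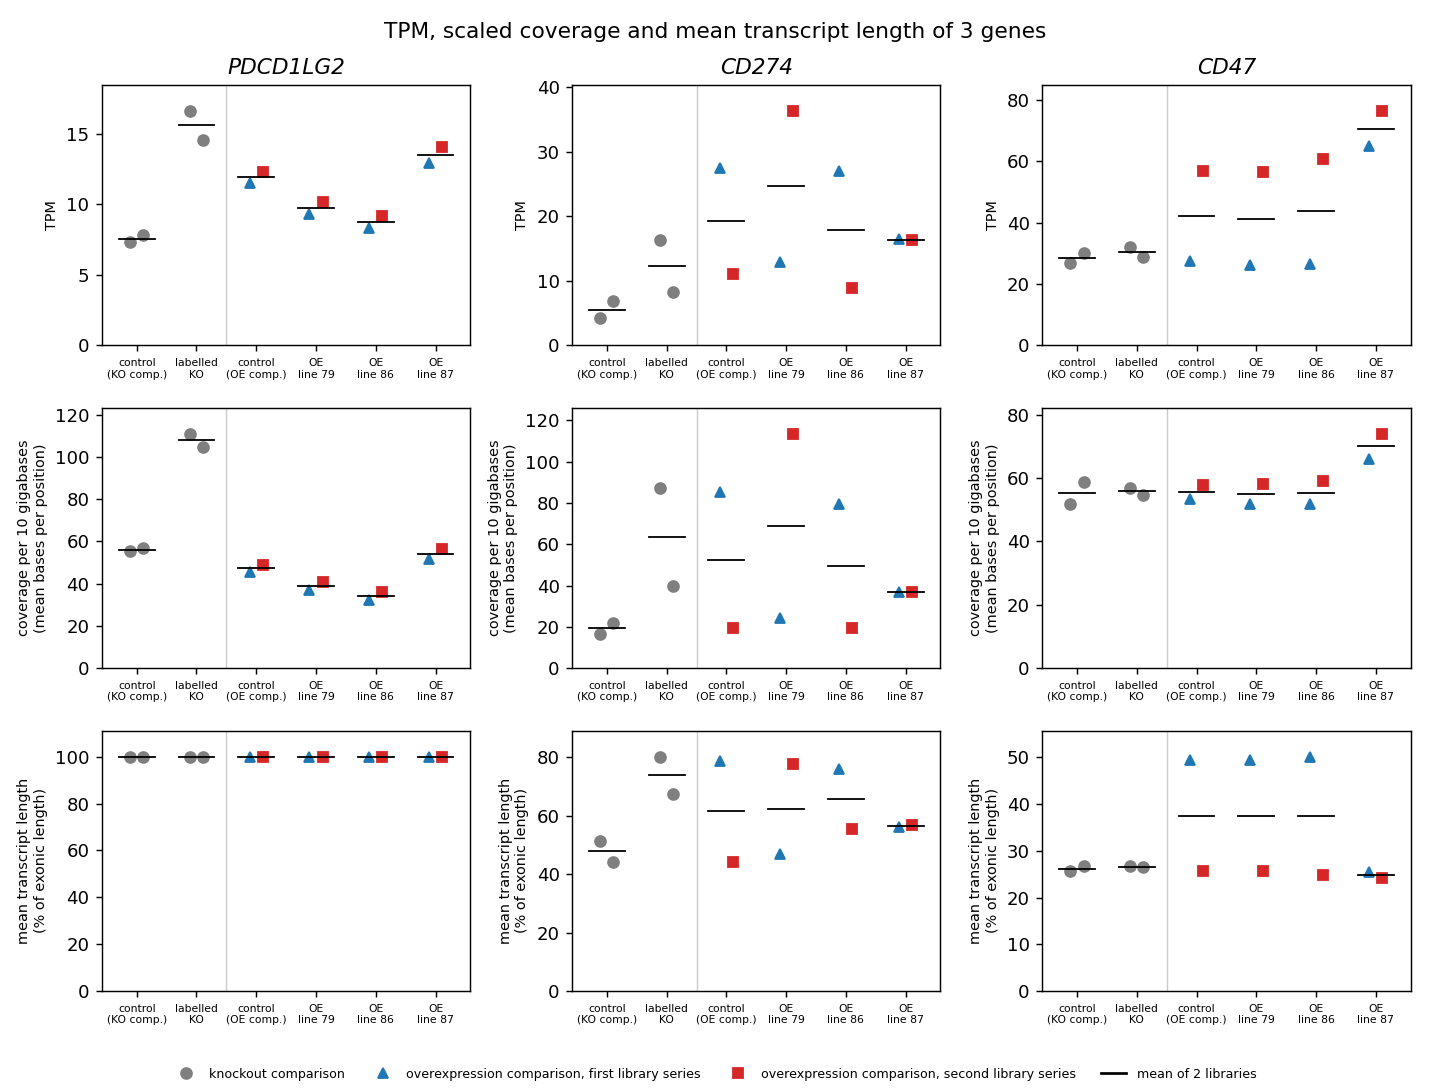
TPM (top), coverage per 10 gigabases (middle) and mean transcript length as a percent of exonic length (bottom) of PDCD1LG2, CD274 and CD47 in the 12 libraries by group, all axes from 0, with a bar at the mean of 2 libraries. CD47 coverage stays between 51.8 and 74.0, while in the overexpression comparison 3 libraries have a low CD47 TPM and a long transcript length, and the 3 libraries of that comparison with the highest CD274 TPM also have its highest coverage and transcript length.

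CD47 coverage per 10 gigabases was 51.8 to 74.0 over all 12 libraries, a 1.43-fold range where TPM ranged 2.91-fold. Its mean transcript length was 49.4% to 50.2% of the exonic length in the 3 overexpression comparison libraries at 26.3 to 27.4 TPM and 24.3% to 25.7% in the other 5. The length thus differed 2.07-fold over these 8 libraries, as much as in 1.46% of genes. In coverage, line 87 was the highest in both series, at 66.1 and 74.0 against controls at 53.4 and 58.0, with a log2 fold change of 0.32, below 1.5-fold. Lines 79 and 86 lay within 51.8 to 59.1.

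CD274 differed from this. Its coverage per 10 gigabases ranged from 19.5 to 113 in the overexpression comparison, 5.83-fold against 4.06-fold in TPM, and the mean transcript length was 75.9% to 78.7% in the 3 libraries with the highest TPM and 44.3% to 56.8% in the other 5. The swings of CD274 between libraries of a label were therefore in the read coverage itself as well as in the transcript length. In the knockout comparison, coverage was 16.7 and 21.95 in the controls and 87.3 and 39.9 in the libraries labelled knockout, with transcript lengths of 51.5% and 44.2% against 80.2% and 67.5%. The log2 fold change in coverage was 1.57 (limma adjusted P = 0.0887). The median span of the transcript length over all genes was 1.10-fold in the overexpression comparison, and CD274 spanned 1.78-fold.

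PVR and CD276 differed in coverage too. PVR coverage was 258.6 and 140.9 in the knockout comparison controls, and over the overexpression comparison it ranged from 123.9 to 245.5 with a mean transcript length of 73.7% to 81.8%, a 1.11-fold span that 47.5% of genes reached. CD276 was given short transcripts, at 8.1% to 13.9% of its exonic length. Its coverage was 17.7 and 21.4 in the controls and 13.0 and 11.1 in the libraries labelled knockout, a log2 fold change of -0.66 (limma adjusted P = 0.0691), which passes the unadjusted test that TPM did not. In line 87 CD276 coverage fell short of the call (-0.81, adjusted P = 0.334). What part the assignment of reads to transcripts has in these differences was not tested.

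**Figure D3:**
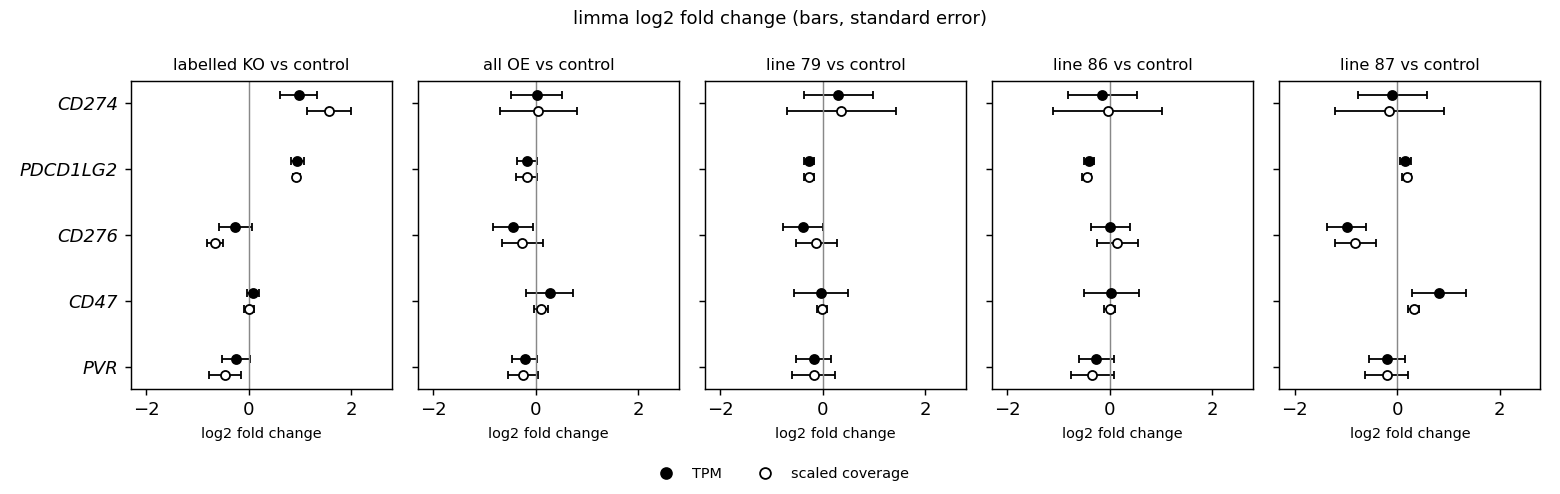
limma log2 fold change (x axis) of 5 ligands in 5 comparisons from TPM (filled) and from coverage scaled to aligned bases (open), with bars of 1 standard error. PDCD1LG2 lies at 0.95 (TPM) and 0.93 (coverage) in the libraries labelled knockout, and all 5 ligands lie between -0.45 and 0.27 (TPM) over all overexpression libraries.

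The effect of the knockout label and that of overexpression, each against its own controls, differed by 1.12 on the log2 scale for PDCD1LG2 (SE 0.27, limma interaction, adjusted P = 0.0503), just short of the threshold of 0.05, which 3.36% of 13792 genes and 0 of the 5 ligands passed. The adjusted P ranged from 0.0289 to 0.194 over 16 alternatives and stayed above 0.05 in 12 of them. It was 0.0455 with a pseudocount of 0.1, 0.0488 with coverage, 0.0611 with median ratio scaling and 0.0638 without the filter. The other 4 ligands had adjusted P values of 0.526 (CD274) and above. The comparison and the identifier prefix of the libraries cannot be told apart in this contrast.

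Profiles over the 8 libraries of the overexpression comparison were also compared with those of 11164 genes at a mean of 5 TPM or more, by the root mean square difference of log2(TPM + 1) around each gene's mean. The 8 points share 2 library series and 4 groups. The genes nearest to PDCD1LG2 were UGCG (0.06), a glucosylceramide synthase, CTNNAL1 (0.06), an alpha-catenin-like protein, and NMI (0.08), an interferon-inducible protein, where PDCD1LG2 itself varied with an SD of 0.23. UGCG and CTNNAL1 lie on chromosome 9, as PDCD1LG2 does, and NMI on chromosome 2. UGCG, for example, was at 35.7 and 36.8 TPM in line 87, 25.5 and 25.8 TPM in line 86, 28.5 and 29.1 TPM in line 79 and 32.9 and 32.8 TPM in the controls. It was chosen by its likeness to PDCD1LG2 in these same libraries, so the shared order of groups follows from the choice. The other ligands had no neighbour as close. The nearest to CD274 (SD 0.63) were ZBTB7B (0.31), MATR3 (0.35) and ST6GALNAC6 (0.37), to CD276 (SD 0.53) GABPB1-AS1 (0.31), RPL21P28 (0.31) and NR2F2 (0.32), to CD47 (SD 0.59) CFL2 (0.29), RP11-478C6.4 (0.31) and TXNP6 (0.31), and to PVR (SD 0.32) WSB1 (0.14), RBM12 (0.17) and RPL29P19 (0.17). Among these, ST6GALNAC6 shares chromosome 9 with CD274, GABPB1-AS1 and NR2F2 share chromosome 15 with CD276, and the rest lie on other chromosomes than their ligand. The share of the 11164 genes on each chromosome was not counted, and the part of chromosome position was not tested.

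The other genes of these pathways were taken from fixed lists. Their counts are to be read beside the shares of all genes called. These were 8.61% up and 3.15% down in the knockout comparison and 0.767% up and 1.16% down in the overexpression comparison. By line they were 7.95% in line 79, 3.6% in line 86 and 5.13% in line 87. In lists this short, few or no calls lie near these shares. A list of 26 other genes held mostly ligands of the B7, TNF and adhesion families. It also held the receptors CD40 and TNFRSF14, HLA-E, HLA-G and the enzyme IDO1. Of the 26, 11 were expressed highly enough to be tested. In the libraries labelled knockout BTN2A1, a butyrophilin, rose from 12.3 to 21.0 TPM (log2 fold change 0.73, limma adjusted P = 0.0297) and CD40, a TNF receptor family member that activates antigen-presenting cells, fell from 46.8 to 30.0 TPM (-0.62, adjusted P = 0.0724). CD80 and CD86, the ligands of CD28 and CTLA4, reached at most 0.119 and 0 TPM. CD70, the ligand of CD27, was called in the overexpression comparison, at 68.5 against 44.1 TPM (0.60, adjusted P = 0.678). By line, CD70 rose in line 79 (0.92, adjusted P = 0.00414) and line 87 (0.64, adjusted P = 0.0285), TNFSF9 (4-1BB ligand) rose in line 79 (0.62, adjusted P = 0.00722), TNFRSF14, which binds BTLA, fell in line 79 (-0.64, adjusted P = 0.0425), and 0 were called in line 86. VSIR was called down in the libraries labelled knockout in coverage only (-0.82, limma adjusted P = 0.0287). In TPM its log2 fold change was -0.41, short of 1.5-fold. The median of the list was 0.09 in the knockout comparison and -0.03 in the overexpression comparison.

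Nectins and nectin-like proteins are the relatives of PVR. Of 8, 5 were tested and 3 were called up in the libraries labelled knockout, beside 8.61% of all genes. They were NECTIN3, which binds PVR (21.2 to 34.0 TPM, 0.66, limma adjusted P = 0.0672), CADM4 (2.25 to 4.06 TPM, 0.63, adjusted P = 0.0779) and NECTIN4 (0.03 to 1.15 TPM, 1.06). NECTIN4 passed the filter on low values only through the libraries labelled knockout, so that it had to differ, and its call carries no weight of its own. After median ratio scaling NECTIN3 (0.51) and CADM4 (0.51) fell below 1.5-fold, and in coverage NECTIN3 did. The median of the 5 genes, NECTIN4 included, was 0.63, beside 0.11 for all genes, and carries the same limit. The others lay at -0.47 (NECTIN1, not called), 0.17 (NECTIN2, not called), 0.63 (CADM4) and 0.66 (NECTIN3), and PVR itself was at -0.25. In the overexpression comparison 4 were tested and 0 were called, overall and by line, with a median of -0.07. NECTIN1 was called down in the libraries labelled knockout in coverage only (-0.63, adjusted P = 0.0365).

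A list of other galectins held 11 genes, of which 4 were tested, among them LGALS3BP, a galectin-binding protein. LGALS3, which also acts on T cells, rose from 27.4 to 43.96 TPM in the libraries labelled knockout (0.66, limma adjusted P = 0.043), and fell below 1.5-fold after median ratio scaling (0.52). The others were not called and the median was 0.29. Of 8 ligands of the activating receptor NKG2D, 4 were tested in the knockout comparison and ULBP2 rose from 11.8 to 22.8 TPM (0.89, adjusted P = 0.0217), with a list median of 0.38. In the overexpression comparison neither list had a called gene, in all lines together or by line. The medians were -0.11 for 4 genes of the galectin list and -0.20 for 5 NKG2D ligands. Of 12 receptors of the ligands, only SIRPA was expressed at a testable level, and it was not called (0.07 and 0.01). PDCD1 reached at most 0.027 TPM.

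Of 18 genes known to regulate CD274 transcription, among them the interferon signalling inhibitors SOCS1, SOCS3 and PTPN2, 17 were tested in the knockout comparison and all 18 in the overexpression comparison. HIF1A, the hypoxia factor, rose from 97.1 to 158 TPM in the libraries labelled knockout (0.69, limma adjusted P = 0.0243) and JAK2, a kinase of the interferon gamma receptor, from 3.73 to 6.31 TPM (0.64, adjusted P = 0.0799). Both fell below 1.5-fold after median ratio scaling (0.55 and 0.52), and the median of the 17 was 0.05. IRF1, which binds the interferon response element, did not move there, at 9.83 TPM in the controls against 9.65 TPM under the knockout label (-0.02, adjusted P = 0.969). In the overexpression comparison IRF1 (22.3 to 13.3 TPM, -0.74, adjusted P = 0.587) and IRF9, an interferon regulatory factor (27.6 to 14.8 TPM, -0.91, adjusted P = 0.546), were called down. The median of the 18 was 0.04.

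By line, IRF1 fell in line 79 (-0.96, limma adjusted P = 0.0385) and line 87 (-0.88, adjusted P = 0.0892), and IRF9 fell in line 79 (-1.25, adjusted P = 0.0288) and line 86 (-1.0015, adjusted P = 0.138). IRF1 and CD274 can be set side by side in each library of this comparison. In the first series IRF1 was at 21.99 TPM in the control, 11.6 in line 79, 21.1 in line 86 and 10.3 in line 87, and the control and line 86 were the highest in both genes. In the second series IRF1 was at 22.5 TPM in the control, 10.3 in line 79, 13.5 in line 86 and 13.2 in line 87. There line 79 was the lowest in IRF1 and the highest in CD274.

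Proteins are also known that act on CD274 or CD47 after translation. There were 9 such genes, among them CMTM6, which keeps CD274 at the cell surface, and QPCTL, which modifies CD47. Of these 8 were tested and 0 were called in any comparison, with medians of 0.06 and 0.10. With so few genes, 0 calls lies near the shares of all genes. Of 12 neighbours of CD274 and PDCD1LG2 on chromosome 9, 8 were tested in the knockout comparison, where only JAK2 was called and the median was 0.29. In the overexpression comparison 0 of 9 were called (median 0.09), and by line UHRF2, a ubiquitin ligase, rose in line 79 (30.3 to 46.2 TPM, 0.60, limma adjusted P = 0.00756).

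**Figure D4:**
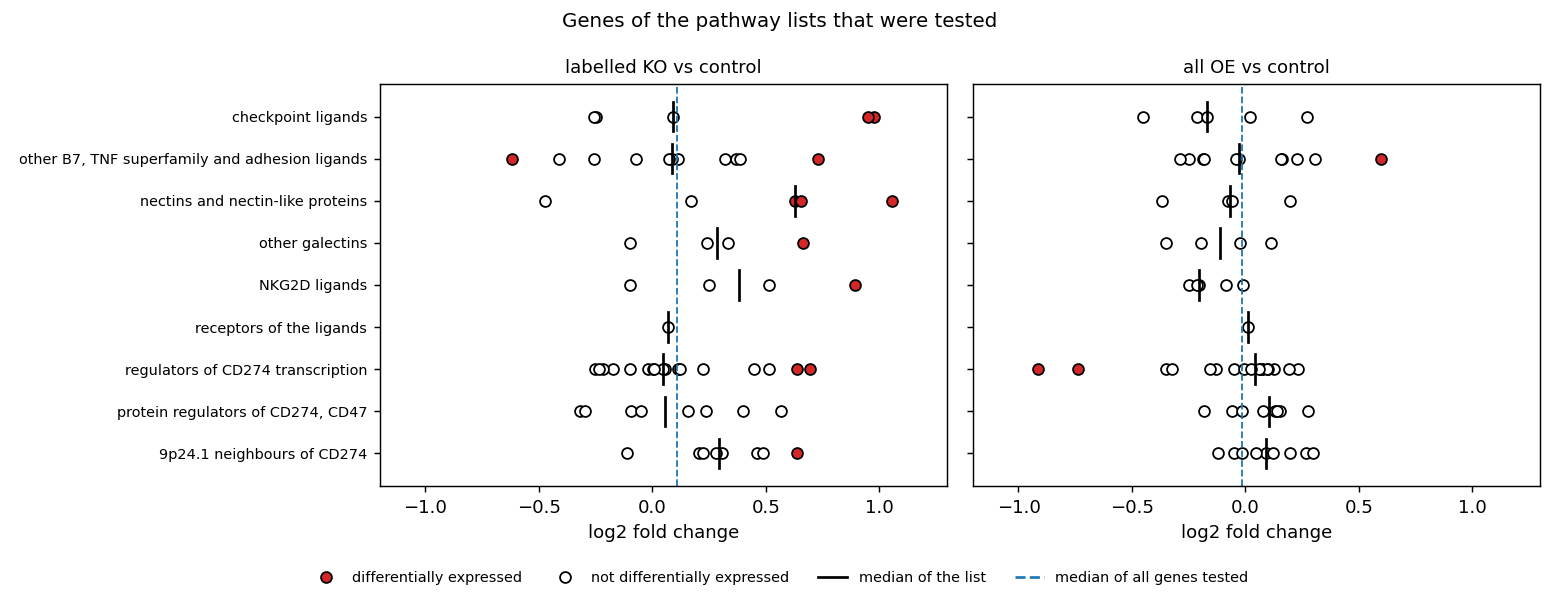
limma log2 fold change (x axis) of each tested gene of the 6 ligands and 8 pathway lists (rows) in the libraries labelled knockout (left) and in all overexpression libraries (right). Filled points are differentially expressed, black bars are list medians and the dashed line is the median of all genes tested. Called genes are mostly to the right at left (CD274, PDCD1LG2 and NECTIN4 farthest) and limited to CD70, IRF1 and IRF9 at right. NECTIN4 passed the filter on low values only through the libraries labelled knockout.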

How the data were processed

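RNA of T24 cells was sequenced in 12 libraries. Per the labels, RNA was polyA selected and libraries followed the Illumina TruSeq protocol, while the study's methods describe ribosomal RNA depletion. The authors trimmed reads with fastp, aligned them with Hisat2 to hg38 (also named in the submitters' processing notes) and estimated expression with Stringtie. The authors deposited coverage, FPKM and TPM for 60504 genes per library, with no read counts, so count models were not used. Here log2(TPM + 1) was fitted with limma 3.58.1 in R 4.3.3 (empirical Bayes with a mean-variance trend) over genes at 1 TPM or more in at least 2 of the libraries compared. As in the study, genes with P below 0.05 and at least a 1.5-fold change were called, and Benjamini-Hochberg adjusted values over all genes tested stand beside them. The F test among lines and the interaction were called at an adjusted P below 0.05. The overexpression comparison was fitted as 2 groups, and the lines as 4 groups.

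Aligned bases per library (9.07 to 15.3 gigabases) were taken as the most frequent ratio of the deposited coverage to FPKM. Fits were tested on simulated data with 200 changed genes. Replicates 1 and 2 of the knockout comparison share only a number (correlation of their deviations 0.024). Named genes were the 6 ligands, the targeted gene, up to 4 called genes of each list with the largest change, and the 3 nearest profiles per ligand. Ligands and lists were chosen with earlier results of these data known. Promoters came from RefSeq on GRCh38.p14 and introns and transcripts from GENCODE release 44. Nectins and VSIR, given under older symbols in the tables, are named by current ones. Alternatives were another pseudocount, no filter, median ratio scaling, no trend, blocks, line means and leaving out each library. Coverage in place of TPM was added after seeing the data.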

Additional observations from a re-analysis of the deposited data

Results flagged for a closer look

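PDCD1LG2 differed among the 3 line labels by a test of the difference itself (limma F test, adjusted P = 0.0218), with line 87 at 12.9 and 14.1 TPM, line 79 at 9.29 and 10.2 TPM and line 86 at 8.34 and 9.17 TPM. In LGALS9 the second library of line 79, at 0.228 TPM, lay far from the other 5 overexpression libraries (0 to 0.042 TPM), with a gap of 0.817 of the group's range. Chance alone marks about 1 in 20 groups in this way, and the level lies under the limit set for testing. Several of these values were at 0, so that this rate may not hold here.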

How the results depend on the processing

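Under the alternatives tried, PDCD1LG2 kept its direction and its call in the knockout comparison. The number of ligands called there was 2, and 1 without the filter on low values and 1 with the replicate number as a block (CD274 adjusted P = 0.237, PDCD1LG2 adjusted P = 0.0885), and leaving out single libraries gave 1 to 3. In line 87 it was 1, and 0 without the filter and 0 with coverage, with 0 to 1 when libraries were left out. Among lines leaving out a library gave 0 to 1, and for the difference of the knockout and overexpression effects, 0 in the fit as reported, it gave 0 to 1, while a pseudocount of 0.1 and coverage gave 1 each. Among the values of single ligands under alternatives, 412 kept direction and call (or, within a library series, moved by less than the spread), 16 lost the call, 7 gained it and 40 changed sign, all 40 in CD274, CD276, CD47 or PVR and in comparisons where the ligand was not called. Sign changes outside the left-out libraries were CD47 at -0.055 in the knockout comparison, 0.0073 in line 79 and CD276 at -0.0001 in line 86 with median ratio scaling, and, with coverage, CD47 at -0.0077 in line 86 and CD276 at -0.39 for the difference of the 2 effects, and, within the first library series of the overexpression comparison, CD274 at -0.59 and CD276 at 0.0197. Leaving out libraries gave log2 fold changes in the knockout comparison -0.63 to 0.14 for PVR and -0.61 to 0.10 for CD276, in the overexpression comparison -0.60 to 0.64 for CD274, -0.24 to 0.78 for CD47 and -0.93 to 0.023 for CD276, in line 79 -0.57 to 0.50 for CD47, -0.41 to 1.01 for CD274, -0.86 to 0.093 for CD276 and -0.53 to 0.17 for PVR, in line 86 -0.62 to 0.093 for PVR, -0.90 to 0.60 for CD274, -0.47 to 0.49 for CD276 and -0.56 to 0.61 for CD47, in line 87 -0.71 to 0.53 for CD274 and -0.54 to 0.15 for PVR, for the difference of the 2 effects -0.28 to 0.67 for CD276, -0.42 to 0.35 for PVR and -0.69 to 0.33 for CD47. The first and second library series correlated at 0.07 to 0.15 in their deviations over 6 pairs of groups, so they were used as a block only as an alternative. Over all genes, calls past an adjusted P of 0.05 and 1.5-fold in the knockout comparison were 686 up and 298 down, 17 and 9 without the filter, 89 and 58 with the replicate block, 557 and 541 with median ratio scaling, 1389 and 323 without the second control, 0 and 2 without the first library labelled knockout and 0 and 0 without the second. Genes differing among lines (2530) were 1222 to 2050 when libraries were left out, and genes with differing effects (463) were 88 to 428, 1311 without the filter and 933 with coverage. The cause was not tested. Where a group is left with 1 library, that library is assumed to vary like the other groups. With 2 libraries a group and no counts, counting error is unknown, and coverage of LGALS9 (at most 0.5 reads per base) is too low to compare.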
